A study of Rattus with 9 samples.

Results

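Most of the genes described here encode nuclear-encoded subunits of the mitochondrial respiratory chain and ATP synthase, read out in thoracic dorsal root ganglia of the rat. They were chosen by symbol: every row that starts with Ndufa, Ndufb, Ndufc, Ndufs, Ndufv, Uqcr, Cox4, Cox5, Cox6, Cox7, Cox8 or Atp5, together with Sdha, Sdhb, Sdhc and Sdhd, without the Ndufaf assembly factors. Of 17378 genes in the deposited count table, 81 carried such a symbol, and the 75 with a mean count of at least 10 reads per library form the set. By symbol, 35 belonged to complex I, 4 to complex II, 8 to complex III, 11 to complex IV and 17 to complex V. All 75 passed the filter for low counts and were tested.

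mRNA libraries were made from the ganglia of 5 SD rats taken 8 weeks after myocardial infarction (MI) by coronary ligation and of 4 SD rats taken 8 weeks after sham surgery. The titles number 1 rat for each library, so p-values measure the spread between rats. The deposited tables call the MI group CHF. The ganglia hold sensory neurons, satellite glia, Schwann cells, macrophages and vessels, so fewer cells of a type and less RNA per cell cannot be told apart. Sex and age are not given in the labels.

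The respiratory chain sits in the inner mitochondrial membrane. Complex I (NADH dehydrogenase) and complex II (succinate dehydrogenase) pass electrons to ubiquinone, complex III hands them to cytochrome c, complex IV (cytochrome c oxidase) reduces oxygen, and complex V (ATP synthase) uses the proton gradient to make ATP. Except for complex II, each complex joins nuclear-encoded subunits with subunits made from mitochondrial DNA. The mitochondrially encoded genes were not analysed here, since none of the 26 symbols looked for was among the counted genes. Large sensory neurons with long axons draw heavily on this machinery.

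Total counts lay between 5656582 (Sham 1) and 6861355 (MI 5), and RNA integrity numbers between 8 and 8.5. Log2 expression correlated at 0.982 to 0.989 between libraries. Of 15 sensory neuron markers, 14 were tested, and 7 of them had a log2 fold change of MI over sham above 0. Rbfox3 alone had an unadjusted p under 0.05 in edgeR's likelihood-ratio test, at -0.21. The summed level of the 14 was 40320 to 42480 CPM (counts scaled to library size with TMM factors) in sham and 39700 to 45520 CPM in MI libraries. The neurofilament genes Nefm, Nefl and Nefh had the highest levels in that sum. Of the other cell type lists, 2 of 7 satellite glia and 0 of 6 Schwann cell genes had a log2 fold change above 0. So did 7 of 8 macrophage, 3 of 5 endothelial, 3 of 4 tested fat and 1 of 10 tested skeletal muscle genes. The share over all tested genes was 50.8%. None of these listed genes passed the test over all genes. C1qb and Itgam of the macrophage list and Cfd and Fabp4 of the fat list had an unadjusted p under 0.05 in the likelihood-ratio test. All of them were higher in MI. Over all tested genes 4.64% were under that level in either direction. Skeletal muscle markers summed to 42.1 to 148 CPM in sham and 41.4 to 139 CPM in MI libraries, with the highest sums in Sham 3 and MI 3.

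Respiratory chain genes were among the more abundant transcripts of the ganglion. On the authors' RPKM scale, which divides reads by gene length and library size, the median of the 75 genes was 84.2 RPKM, against 8.12 RPKM over all 11711 tested genes. Of the 75, 32 were among the 500 highest tested genes by RPKM, and 73 lay above the median gene. Together they took 1.22% ± 0.0354 (SD, n = 4) of all counts in sham and 1.25% ± 0.0138 (SD, n = 5) in MI libraries. Median levels were 219 RPKM in complex IV, 172 RPKM in complex V, 89.9 RPKM in complex III, 74.4 RPKM in complex I and 72.7 RPKM in complex II.

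**Figure D1:**
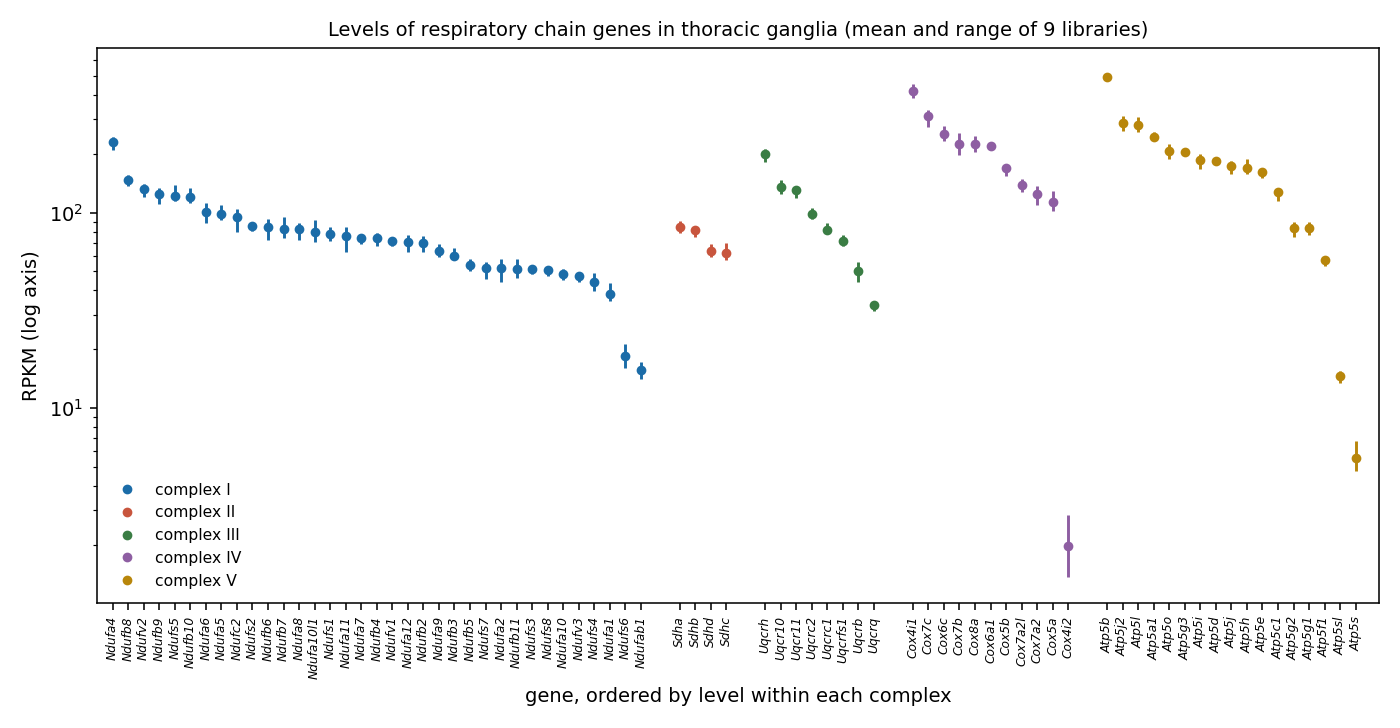
RPKM (log axis) of each of the 75 genes, ordered by level within its complex; points are means and lines the lowest and highest of the 9 libraries. Atp5b at 494 RPKM and Cox4i1 at 420 RPKM stand at the top, Cox4i2 at 1.96 RPKM at the bottom.

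Within ATP synthase the catalytic beta subunit gene Atp5b stood highest, with a mean of 494 RPKM and a range of 477 to 516 RPKM over the 9 libraries. It ranked 56 among all tested genes. Atp5a1, the alpha subunit that alternates with beta in the F1 head, had 244 RPKM, a ratio of 2.02 between beta and alpha. The remaining F1 genes had 183 RPKM (Atp5d, delta), 161 RPKM (Atp5e, epsilon) and 127 RPKM (Atp5c1, gamma). The proton-carrying c subunit is made from a small gene family, of which Atp5g3 gave 54.9% of the summed RPKM and Atp5g1 and Atp5g2 gave 22.6% each. The lowest genes of this group were Atp5s at 5.55 RPKM and Atp5sl at 14.7 RPKM. Both share the Atp5 prefix but are now named Dmac2l and Dmac2 in RefSeq, and Dmac2 is an assembly factor of complex I.

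Cox4i1, the common form of the subunit 4 of cytochrome c oxidase, had 420 RPKM and ranked 69 among all tested genes. The other complex IV genes lay between 113 RPKM (Cox5a) and 312 RPKM (Cox7c), with the exception of Cox4i2. In complex III levels ran from 199 RPKM for the hinge protein gene Uqcrh down to 33.6 RPKM for Uqcrq. The 4 succinate dehydrogenase genes, the complex with the fewest genes, had the narrowest RPKM span. It was 1.37-fold, from Sdhc (61.9 RPKM) to Sdha (84.6 RPKM), the flavoprotein. Sdhb, the iron-sulphur subunit, had 81.5 RPKM, and Sdhd, the other membrane anchor beside Sdhc, 63.9 RPKM.

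In complex I, 29 of 35 genes lay between 40 and 130 RPKM. The highest was Ndufa4 at 230 RPKM, a gene named for complex I whose protein has since been assigned to complex IV. The 7 core genes of the hydrophilic arm, which holds the flavin and the iron-sulphur clusters, had a median of 71.6 RPKM, with a range from 51.0 RPKM (Ndufs8) to 132 RPKM (Ndufv2). The 28 other genes had a median of 74.4 RPKM. The lowest were Ndufab1, the mitochondrial acyl carrier protein, at 15.6 RPKM and Ndufs6 at 18.6 RPKM. The low RPKM of Ndufab1 went with a large length divisor, 3.69 times the median of the 75 genes, since its mean count was 411 reads. Ndufs6 was low by count as well, at 66.9 reads.

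Tissue-restricted isoforms were scarce beside their common partners. Cox4i2, a form of subunit 4 known from lung and from pericytes of the brain, had 1.96 RPKM, so that Cox4i1 was 214 times higher per length. The muscle isoform Cox6a2 drew 22 reads over all 9 libraries (95% Poisson interval 13.8 to 33.3, counting error only), and Cox6a1 was 436 times higher in RPKM. Its 2 largest counts, 7 in Sham 3 and 4 in MI 3, fell in the libraries with the highest skeletal muscle marker sums. Cox8b, another muscle form, drew 17 reads (interval 9.9 to 27.2), with Cox8a 385 times higher in RPKM. Its largest count, 4, was in MI 4, and MI 2, Sham 3 and MI 3 had 3 each. Counts this small cannot tell whether Cox6a2 or Cox8b followed the muscle marker sums, which was not tested. Ndufa4l2, known from hypoxic cells and brain pericytes, drew 63 reads (interval 48.4 to 80.6), with Ndufa4 320 times higher in RPKM. Cox6b2, the testis form, drew 80 reads (interval 63.4 to 99.6). With 7.0 and 8.89 reads on average, Ndufa4l2 and Cox6b2 lay just below the minimum mean count of 10, and Cox4i2 lay just above it at 14.2 reads. Cox6c-ps1 and Cox8c had no reads in any library. Cox6b1 and Cox7a1 were not found under these symbols among the counted genes, so Cox6b2 could not be set beside its common partner.

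The comparison of MI with sham asked whether expression of these genes differed in the ganglia 8 weeks after infarction. None of the 75 passed the threshold of an adjusted p of 0.05 in edgeR's likelihood-ratio test, and the smallest adjusted p was 1.00. Over all tested genes 0.0171% passed. At an unadjusted p under 0.05 there were 2 of the 75 (2.67%), Atp5o and Ndufc2, beside 4.64% of all tested genes. Both were higher in MI, as were 2.37% of all tested genes at that level, while 2.27% were lower. The edgeR quasi-likelihood test also passed none of the 75 and 0% of all tested genes. At an unadjusted p under 0.05 it gave 3 of the 75, with Sdhd in addition, beside 5.14% of all. DESeq2 and limma-voom passed none either.

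The bounds on a change in the whole ganglion were narrow for most of the 75 genes. By limma-voom the 95% interval of the log2 fold change lay within 1.25-fold in either direction for 73 of the 75 genes and within 1.5-fold for 74. Over all tested genes, many of which have fewer reads, these shares were 58.6% and 84.4%. The intervals are for single genes and are not adjusted for their number. They do not bound a change confined to a single cell type of the ganglion. The exceptions at 1.25-fold were Cox4i2, from -0.21 to 0.87, and Atp5s, from -0.34 to 0.11. The median coefficient of variation within groups was 5.08% for the 75 genes, against 9.57% over all tested genes, many of which have fewer reads.

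**Figure D2:**
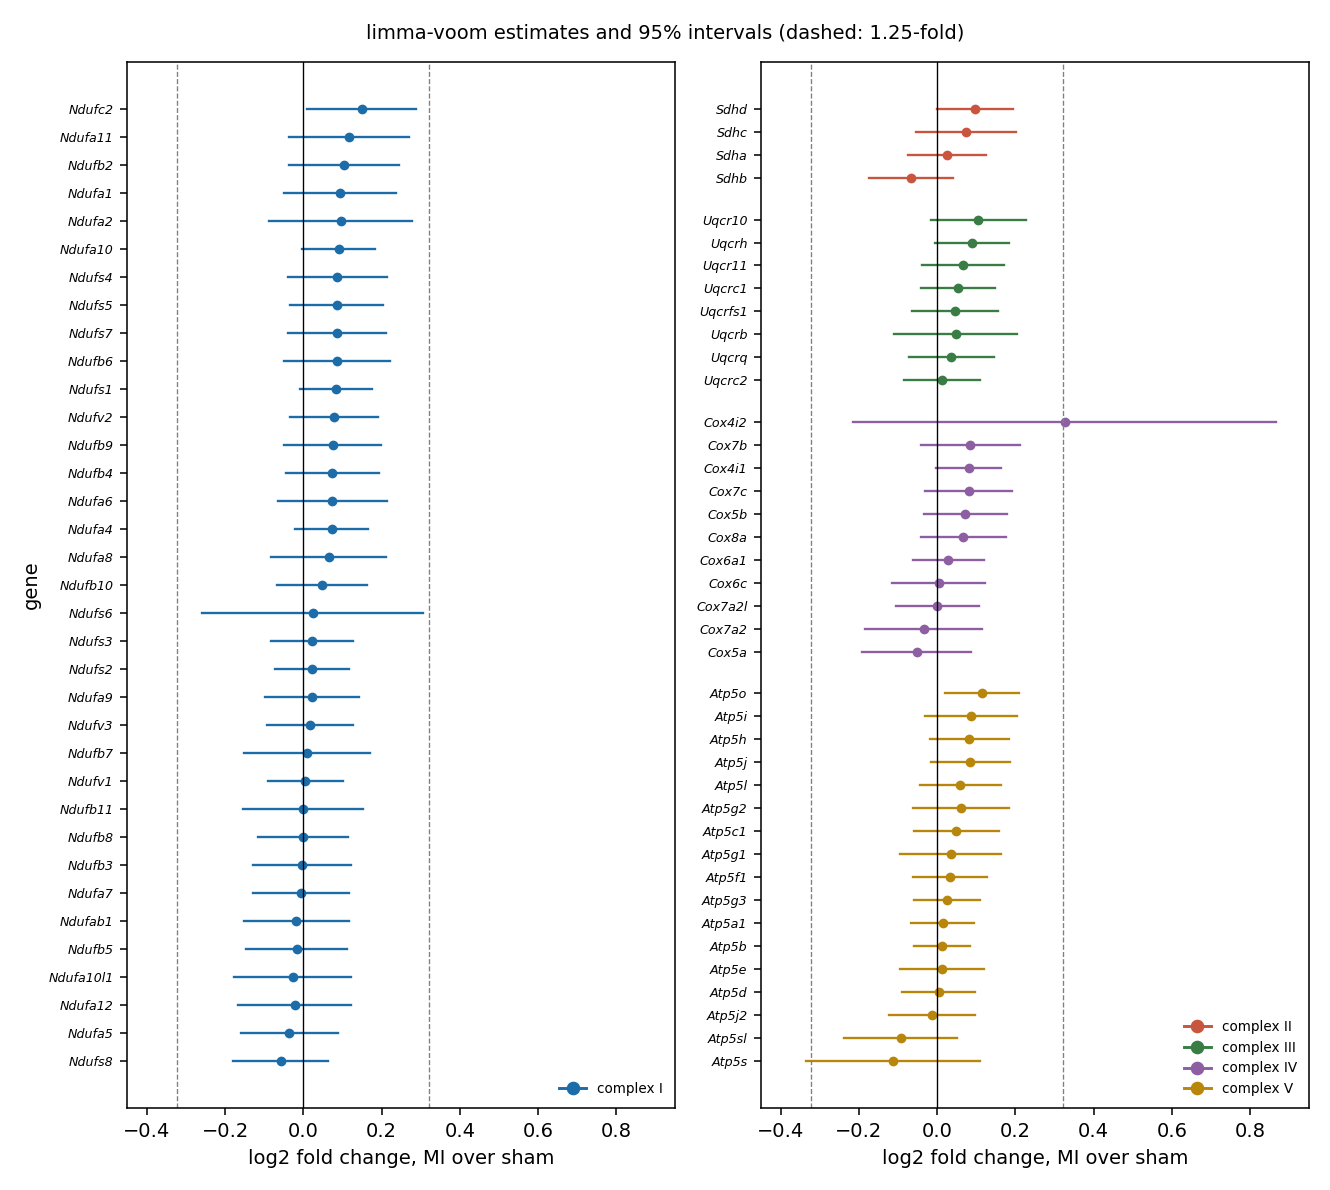
Log2 fold change of MI over sham by limma-voom for each of the 75 genes with its 95% interval, complex I in the left panel and complexes II to V in the right; dashed lines mark 1.25-fold. All but Cox4i2 and Atp5s have intervals inside the dashed lines.

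Most point estimates were small and positive. The log2 fold change was above 0 in 59 of 75 genes, or 78.7%, beside 50.8% of all tested genes, with a median of 0.05 beside 0.0017 for all. Atp5s, Atp5sl and Cox7a2l were set apart as not structural subunits. The median of the 72 genes without them was 0.05 as well. By complex, 25 of 35 genes were above 0 in complex I (median 0.05), 3 of 4 in complex II (0.05), 8 of 8 in complex III (0.05), 9 of 11 in complex IV (0.07) and 14 of 17 in complex V (0.03). These counts are a description of genes that did not pass singly. The medians by complex varied when single libraries were left out. Each shift was smaller than the spread of library medians within groups, 0.0389 to 0.0455 by complex. Complex I had 0.02 without Sham 2, and complex II had 0.03 without Sham 1 or without MI 5. Complex III had 0.03 without MI 4. Complex IV had 0.05 without Sham 1, 0.04 without MI 3, and 0.03 without Sham 2 or without MI 4. Complex V had 0.01 without Sham 2 and 0.06 without Sham 3. Over all 75, leaving out Sham 2 alone gave 49 of 75 genes above 0 and a median of 0.02, and leaving out MI 4 alone gave 55 genes and 0.03. Without Sham 1 and Sham 2 together 38 of 75 genes were above 0 and the median was 0.0011. That pair was chosen after seeing that both were lowest for these genes, so part of this fall is built into the choice.

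Sham 2 and Sham 1 were the lowest libraries for this set. Relative to each gene's mean over 9 libraries, the median deviation of the 75 genes was -0.09 in Sham 2 and -0.04 in Sham 1 on the log2 scale. It was 0.02 in Sham 3, 0.02 in Sham 4, -0.0070 in MI 1, 0.0082 in MI 2, 0.03 in MI 3, 0.06 in MI 4 and 0.01 in MI 5. Sham 3 and Sham 4 thus lay inside the range of the MI libraries, and the groups overlapped. Of the 75 genes, 33 had their lowest level in Sham 2 and 17 in Sham 1, while 20 had their highest level in MI 4.

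Sham 2 had the lowest median deviation in complexes I, III, IV and V, and Sham 1 in complex II at -0.08. Sham 1 was not uniformly low: in complex IV it stood at -0.02, with MI 2 just below it, and in complex V at -0.01, with MI 1 below it at -0.02. MI 4 was the highest library in complexes I, III and IV, at 0.07, 0.08 and 0.06, and MI 5 in complexes II and V, at 0.05 and 0.03. The summed level of all 75 genes was 12066, 11791, 12527 and 12457 CPM in Sham 1 to Sham 4. It was 12382, 12458, 12546, 12879 and 12445 CPM in MI 1 to MI 5. Summed neuron markers were highest in MI 4, at 45523 CPM, and stood at 42125 CPM in Sham 1 and 40323 CPM in Sham 2. Summed Schwann cell markers were 13826, 12532, 10923 and 11482 CPM in Sham 1 to Sham 4, highest in the pair that was low for the 75 genes. They were 9056.5, 10857, 10527, 9848.8 and 14528 CPM in MI 1 to MI 5, with the highest of all 9 libraries in MI 5. Summed haemoglobin and Alas2 reads were lowest in MI 4 (1954 CPM) and Sham 2 (2809 CPM). Sham 1 was the shallowest library. The part of these measures in the result was not tested.

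**Figure D3:**
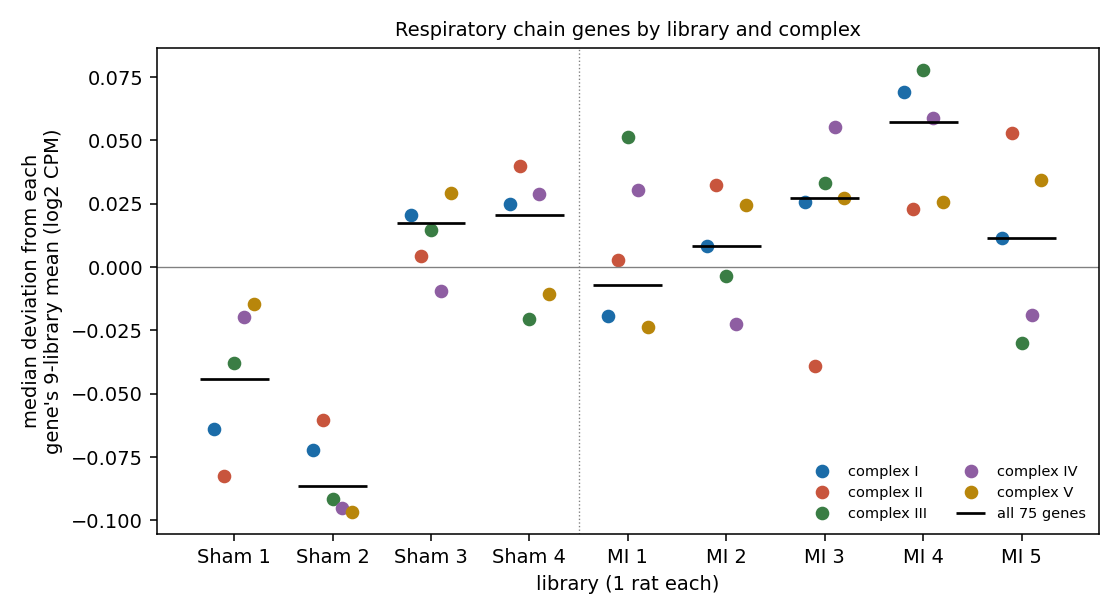
Median deviation of the genes of each complex from each gene's mean over 9 libraries (log2 CPM), by library, with sham left and MI right of the dotted line; black bars give all 75 genes. Sham 2 and Sham 1 lie lowest, at -0.09 and -0.04, and Sham 3 and Sham 4 lie within the MI range.

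**Figure D4:**
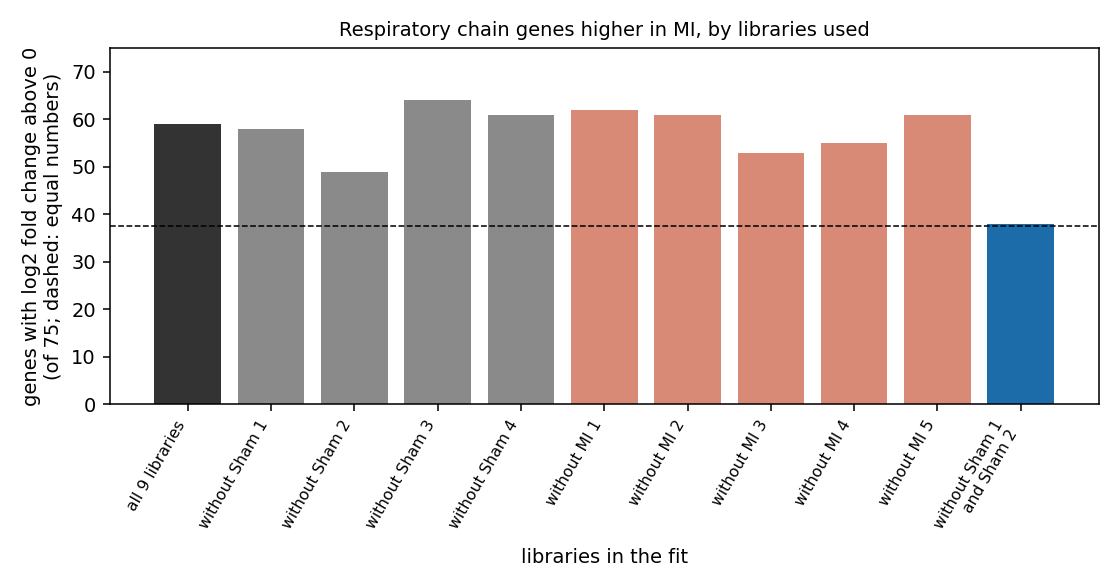
Number of the 75 genes with a log2 fold change above 0 (MI over sham) with all 9 libraries, with each library left out in turn, and without Sham 1 and Sham 2 together. The count is 59 with all libraries, between 49 and 64 with 1 library left out, and 38 without both.

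In complex I the smallest p was that of Ndufc2, an accessory subunit of the membrane arm. Its levels were 82.7, 73.7, 86.0 and 92.1 CPM in Sham 1 to Sham 4 and 86.1, 93.5, 97.2, 94.3 and 91.4 CPM in MI 1 to MI 5. Sham 2 was the lowest and 3 MI libraries lay above the highest sham, so the groups overlapped. The means were 83.6 ± 7.67 CPM (SD, n = 4) in sham and 92.5 ± 4.15 CPM (SD, n = 5) in MI, a log2 fold change of 0.15 (SE 0.07, unadjusted p = 0.0443, edgeR adjusted p = 1.00). Without Sham 2 the log2 value was 0.09, and without Sham 1 and Sham 2 it was 0.05.

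Ndufa10, an accessory subunit, was singled out after its values were seen because its groups did not overlap. It had 148.8, 149.1, 160.2 and 160.1 CPM in Sham 1 to Sham 4 and 161.4, 161.6, 165.6, 169.5 and 164.3 CPM in MI 1 to MI 5. Sham 3 and Sham 4 lay just under the lowest MI library, and Sham 1 and Sham 2 lay further down. Its log2 fold change was 0.09 (SE 0.03, unadjusted p = 0.0841). Groups did not overlap in 2 of the 75 genes, Ndufa10 and Atp5o, both with MI higher, beside 1.74% of all tested genes in either direction. Over all tested genes every MI library was above every sham in 0.837% and below in 0.905%. Ndufa10l1, listed as a separate gene of similar name, had a log2 fold change of -0.02. Reads shared between that pair could not be separated.

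Among the 7 core genes of complex I, 6 had values above 0. Ndufs1, which holds iron-sulphur clusters of the NADH-oxidising module, had the largest count of them and a log2 fold change of 0.08 (SE 0.04), with 306 ± 8.93 CPM (SD, n = 4) in sham and 325 ± 13.5 CPM (SD, n = 5) in MI. Ndufv1, the flavin-binding subunit, had 0.0049 (SE 0.04). Ndufs8 had the smallest p among complex I genes that were lower in MI, at -0.06 (SE 0.04, unadjusted p = 0.401). Its sham level was 64.6 ± 1.87 CPM (SD, n = 4) and its MI level 62.1 ± 3.23 CPM (SD, n = 5). Ndufa4 had 0.07 (SE 0.04) and Ndufab1 -0.01 (SE 0.06). Over the 28 other genes 19 were above 0, with a median of 0.06. The summed level of the 35 genes was 3807 ± 142 CPM (SD, n = 4) in sham and 3928 ± 72.9 CPM (SD, n = 5) in MI, and the ranges overlapped.

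In complex II the genes did not share a direction. Sdhd stood at 120.6, 120, 124.4 and 131.6 CPM in Sham 1 to Sham 4 and at 130, 138, 131, 133.2 and 131.6 CPM in MI 1 to MI 5. Sham 4 lay among the MI libraries and the other shams below them. The log2 fold change was 0.10 (SE 0.03, unadjusted p = 0.0739). Sdhb was on the other side of 0, at -0.07 (SE 0.04, unadjusted p = 0.257). It had 130.4 to 135.6 CPM in sham and 120, 122.3, 126.7, 134.9 and 136.2 CPM in the MI libraries from lowest to highest, and 3 of 5 lay below all shams. Sdhc had 0.07 (SE 0.06) and Sdha 0.03 (SE 0.04). Summed, the group had 688 ± 21.5 CPM (SD, n = 4) in sham and 702 ± 23.6 CPM (SD, n = 5) in MI.

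In complex III all 8 estimates of the set were above 0, from 0.01 (Uqcrc2, a core protein gene) to 0.10 (Uqcr10). None was under an unadjusted p of 0.05. Cyc1, the cytochrome c1 gene of complex III, is outside the set by its symbol. It was below 0, at -0.05 (SE 0.05), with 3 MI libraries below all shams. Within the set Uqcrh had the smallest p, 0.0917. Its levels were 176.2, 164.9, 181.6 and 178.3 CPM in Sham 1 to Sham 4 and 192.6, 181.5, 186.6, 179.7 and 191.0 CPM in MI 1 to MI 5. The groups overlapped, with Sham 2 lowest, and the log2 fold change was 0.09 (SE 0.03). Uqcrfs1, the Rieske iron-sulphur protein, had 0.05 (SE 0.04), and Uqcrq 0.04 (SE 0.03). The summed level was 1172 ± 36.6 CPM (SD, n = 4) in sham and 1215 ± 32.2 CPM (SD, n = 5) in MI, with overlapping ranges.

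In complex IV the smallest p was that of Cox4i1, at 0.103. It had 450.2, 467.2, 479.5 and 474.9 CPM in Sham 1 to Sham 4 and 499.2, 518.4, 484.1, 499.2 and 474.4 CPM in MI 1 to MI 5. All MI libraries but MI 5 lay above the highest sham. The log2 fold change was 0.08 (SE 0.03). Cox8a had 0.07 (SE 0.05), Cox6a1 0.03 (SE 0.03) and Cox7a2 -0.03 (SE 0.08). Cox5a, a matrix-facing subunit, was the complex IV gene below 0 with the smallest p, at -0.05 (SE 0.07, unadjusted p = 0.466). Cox7a2l, which takes part in joining complexes III and IV into supercomplexes, had 0.00081 (SE 0.05). Cox7c, the highest of the small subunits by RPKM, had 0.08 (SE 0.05), and Cox6c, another small subunit, 0.0022 (SE 0.06). The summed level was 2065 ± 77.7 CPM (SD, n = 4) in sham and 2129 ± 49.3 CPM (SD, n = 5) in MI, with overlapping ranges.

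Cox4i2 had the largest estimate of the set and the widest interval. Its counts were 10, 12, 10 and 17 reads in Sham 1 to Sham 4 and 15, 13, 17, 20 and 14 reads in MI 1 to MI 5. Scaled, it stood at 1.99 ± 0.495 CPM (SD, n = 4) in sham and 2.52 ± 0.514 CPM (SD, n = 5) in MI, with 1 MI library above the highest sham. The log2 fold change was 0.33 (SE 0.18, unadjusted p = 0.256). Markers of pericytes and smooth muscle summed to 253 to 298 CPM in sham and 284 to 418 CPM in MI. Of 11 such genes none was at 0, 10 were tested, 8 were above 0, 5 had an unadjusted p under 0.05 and none passed over all genes. Over all tested genes 50.8% were above 0 and 4.64% had an unadjusted p under 0.05. The 5 were Kcnj8 and the contractile genes Acta2, Myh11, Tagln and Cnn1. The other tested markers were Abcc9 (0.07), Cspg4 (0.04), Pdgfrb (0.02), Notch3 (-0.04) and Rgs5 (-0.09). The part of these markers in the Cox4i2 value was not tested. The other pericyte-associated isoform, Ndufa4l2, had 6 to 8 reads in sham and 4 to 12 reads in MI libraries. Cox6b2, tested although under the minimum mean count, had a log2 fold change of 0.75 (SE 0.47, unadjusted p = 0.0686), with 1 to 12 reads in sham and 8 to 16 reads in MI libraries.

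**Figure D5:**
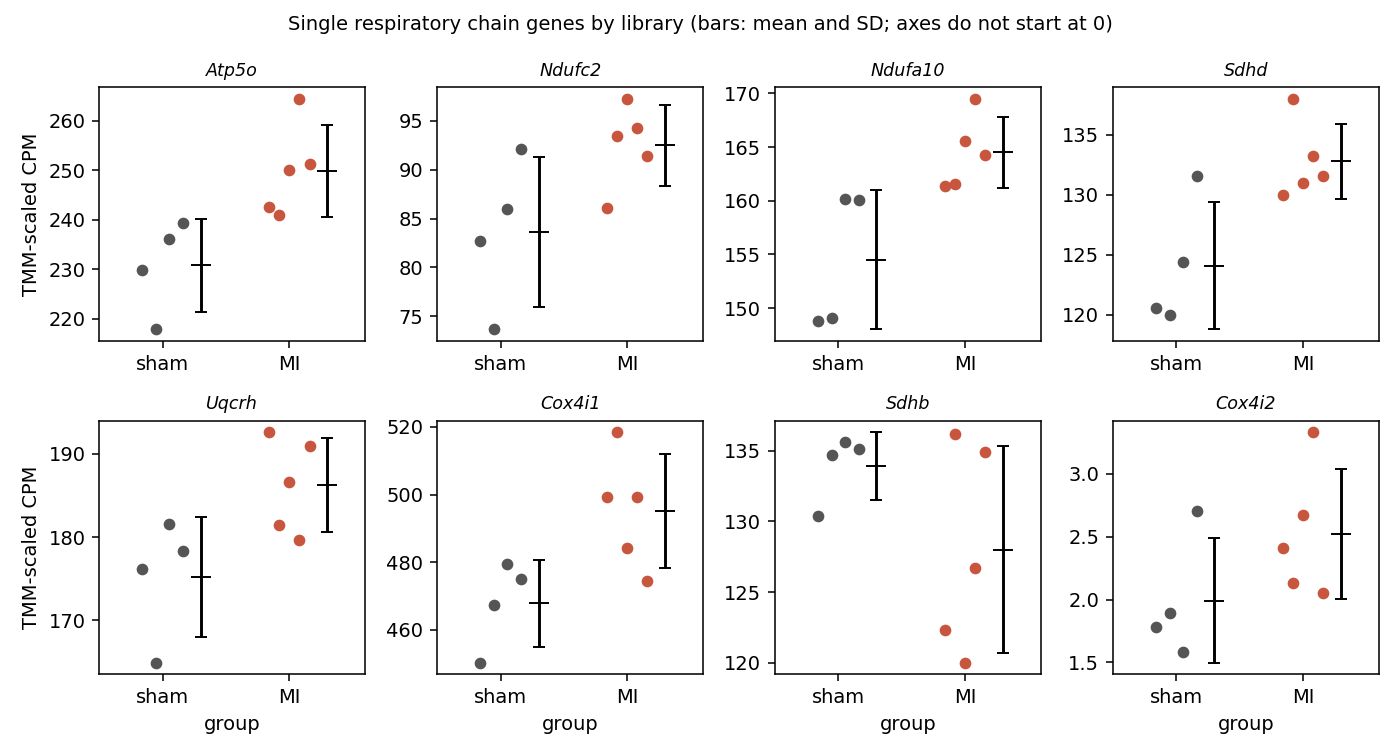
TMM-scaled CPM of 8 single genes in the 4 sham and 5 MI libraries, 1 point per rat, with the group mean and SD as bars. Atp5o and Ndufa10 do not overlap between groups, the other 6 do, and Sdhb has the lower mean in MI.

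In complex V, Atp5o had the smallest p of the whole set. It encodes the oligomycin sensitivity-conferring protein, which ties the F1 head to the peripheral stalk. Its levels were 229.8, 217.9, 236.1 and 239.3 CPM in Sham 1 to Sham 4 and 242.5, 241.0, 250.1, 264.4 and 251.2 CPM in MI 1 to MI 5. All 5 MI libraries lay above all 4 shams, the lowest of them just above Sham 4. The means were 231 ± 9.44 CPM (SD, n = 4) and 250 ± 9.32 CPM (SD, n = 5), a fold change of 1.08 (log2 0.11, SE 0.04, unadjusted p = 0.0296, edgeR adjusted p = 1.00). Its limma-voom interval ran from 0.02 to 0.21, and over the alternatives the adjusted p ranged from 0.788 to 1. Without Sham 1 and Sham 2 the log2 value was 0.07.

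Genes of the F1 head had the smallest median of the ATP synthase groups, 0.01, with 5 of 5 above 0. Atp5b stood at 1423, 1452, 1445 and 1395 CPM in Sham 1 to Sham 4 and at 1430, 1410, 1430, 1511 and 1429 CPM in MI 1 to MI 5. MI 4 lay above the rest and the other MI libraries inside the sham range. Its log2 fold change was 0.01 (SE 0.02) with an interval from -0.06 to 0.08. Over the 5 F1 genes the estimates ran from 0.0042 (Atp5d) to 0.05 (Atp5c1). The c subunit genes had 0.03 (Atp5g1), 0.06 (Atp5g2) and 0.02 (Atp5g3). The remaining 9 genes of the group, most of them in the stalk and membrane part, had a median of 0.06. Among them were Atp5h and Atp5j, both of the peripheral stalk, with 0.08 (SE 0.04) each. Atp5l, a membrane-part gene, had 0.06 (SE 0.05), and Atp5j2, also of the membrane part, had -0.02 (SE 0.05). Atp5sl had -0.09 (SE 0.06) and Atp5s -0.12 (SE 0.09), the lowest estimate of the 75. Summed, the 17 genes had 4478 ± 91.4 CPM (SD, n = 4) in sham and 4568 ± 79.1 CPM (SD, n = 5) in MI, with overlapping ranges.

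Other mitochondrial genes of the same pathway were read from lists of assembly factors, electron carriers, TCA cycle enzymes, membrane carriers and biogenesis regulators, and none passed the threshold. Of 36 tested assembly factors 20 were above 0, with a median of 0.01. The smallest p was that of Sdhaf3, a factor for the iron-sulphur subunit of complex II. It had 4.10, 4.43, 4.58 and 4.14 CPM in Sham 1 to Sham 4 and 3.86, 2.63, 3.61, 2.83 and 3.52 CPM in MI 1 to MI 5. All 5 MI libraries lay below all shams at this low level, with a log2 fold change of -0.39 (SE 0.12, unadjusted p = 0.0760). Summed over their 36 genes, assembly factors were also lowest in Sham 2 (1169 CPM) and Sham 1 (1174 CPM) and highest in MI 4 (1237 CPM). MI 5 was close to that pair, at 1178 CPM. The other lists did not share the low pair. Electron carriers and membrane carriers were lowest in Sham 2 with MI 5 next, at 737 and 3270 CPM. TCA cycle genes were lowest in Sham 1 (3979.5 CPM) and MI 3 (4001 CPM). Biogenesis regulators were lowest in MI 5 (406 CPM) and MI 3 (407 CPM).

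Etfb, Ogdh, Higd2a and Polg are named below because each had the smallest p of its list. Over all tested genes 50.8% were above 0 and 4.64% had an unadjusted likelihood-ratio p under 0.05. Of the 5 genes in the list of electron carriers, which also held Cyc1 of complex III, 4 were above 0 and Cyc1 was below it. Etfb, the beta subunit of the flavoprotein that takes electrons from fatty acid oxidation, had 0.19 (SE 0.08, unadjusted p = 0.0365). Of 17 TCA cycle genes, 12 were above 0. Ogdh, the oxoglutarate dehydrogenase subunit, had -0.13 (SE 0.05, unadjusted p = 0.0285), with 310 ± 16.6 CPM (SD, n = 4) in sham and 283 ± 16.7 CPM (SD, n = 5) in MI. Of 12 membrane carrier and channel genes, 6 were above 0, and Higd2a, a supercomplex factor, had 0.14 (SE 0.07). Of 14 regulators of mitochondrial biogenesis, 6 were above 0, and Polg, the mitochondrial DNA polymerase, had -0.09 (SE 0.05).

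For MI against sham the authors' deposited table, as used here, ran to a p of 0.712 and held 50 of the 75 genes. In the authors' deposited table none of the 50 was under an unadjusted p of 0.05, and the smallest adjusted p was 1. Of 8000 genes in the authors' deposited table as used here, 60 had an adjusted p under 0.05, where the fit made here passed 2 of 11711, and the cause of that gap was not tested. Of the 50 respiratory chain genes, 43 had a fold change above 1 and 7 below it in the authors' deposited table. The fold change of Ndufc2 was 1.10 (p = 0.0661) and that of Atp5o 1.08 (p = 0.0907) in the authors' deposited table. All 50 directions matched those computed here, from the same libraries.

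Reads of many of these genes may be hard to place, which was not tested. In RefSeq 37 of the 75 have at least 1 named pseudogene, with 85 in all, 8 of them for Atp5l and 7 for Ndufb4. The sources used here do not give how reads matching several copies were counted, which leaves the levels of these genes uncertain to that extent.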

How the data were processed

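mRNA libraries of 5 MI and 4 sham rats were analysed, with groups and replicate numbers from the sample titles. Per the series' design text, which holds the labels' methods, the authors trimmed 75 bp reads with cutadapt, aligned them to rn6 with STAR 2.3.0 and summarised them per gene against Partek 6.6 annotation. The submitters' processing notes name bcl2fastq 2.16.0.10. The authors' deposited read counts per gene are whole numbers, rounded from a deposited table of estimated counts, from which they differed by at most 0.5. The deposited RPKM values were scaled by the authors for gene length and library size, per the file headers. The authors' deposited test table holds TMM-scaled CPM, a linear fold (ratio), mean log2 CPM, p-values and adjusted p-values, per the file headers. RNA integrity numbers, a score, are from a deposited sheet.

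The main test used edgeR 4.0.16 in R 4.3.3: filterByExpr (11711 of 17378 genes kept), TMM factors, a dispersion per gene (tagwise) and the likelihood-ratio test that the design text names. P-values were adjusted over all of these genes (Benjamini-Hochberg), and an adjusted p under 0.05 was called. Levels in CPM were computed here with TMM scaling. Each SE is for the difference between group means of log2 CPM (prior count 2), not for the edgeR coefficient. As alternatives, limma-voom (limma 3.58.1) also gave the 95% intervals, and DESeq2 1.42.0, edgeR's quasi-likelihood test, other scalings and filters, unrounded counts, a replicate block, leaving out each library and limma on RPKM values in log2 with 0.1 or 1 added were run.

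The members, lists and tests were chosen with earlier results of these data known. Named were, per complex, the gene with the smallest p in each direction and those with the highest and lowest RPKM, all genes with an unadjusted p under 0.05, isoform pairs, the complex II genes and the smallest p of each pathway list. Other named genes were chosen after their values were seen. Of the 75 symbols, 58 are current in RefSeq (GRCr8) and 17 matched a synonym. Coordinates are left out because GRCr8 is not the build of the files. The sources do not say whether counting used strand, and reads of overlapping genes cannot be separated.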

Additional observations from a re-analysis of the deposited data

Results flagged for a closer look

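Some genes had 1 library far from the others of its group, by Dixon's criterion applied within sham and within MI. It picked 5 of 76 groups, where chance alone gives 3.8. Atp5b was high in MI 4, at 1511 CPM against 1410 to 1430 CPM in the other MI libraries. For Ndufa4 the level in Sham 2 was 269.3 CPM, below the other shams with 295 to 299.1 CPM. Ndufs8 in Sham 2 was also low, 61.82 CPM beside 65.31 to 65.9 CPM. Sham 1 held the low value of Sdhb, 130.4 CPM beside 134.7 to 135.6 CPM, and of Atp5sl, 44.36 CPM beside 46.96 to 47.47 CPM.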

How the results depend on the processing

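None of the 75 genes passed the threshold under any of the alternatives run. The number of genes with a log2 fold change above 0 was 59, between 49 (without Sham 2) and 64 (without Sham 3) with 1 library left out, and 38 without Sham 1 and Sham 2 together. That pair was left out after seeing the data because both were lowest for these genes, so a fall follows in part from the choice. Without the pair the medians were 0.0011 for all 75 genes, -0.0040 for complex I, 0.0018 for complex II and -0.0035 for complex IV, each a move by more than the spread between libraries, and 1 gene of the whole table passed. In that fit Atp5g1 (-0.029), Cox6a1 (-0.017), Sdha (-0.0080) and Uqcrq (-0.00087) turned below 0, and Atp5s (0.015) and Ndufab1 (0.0089) above it. With 1 library left out the log2 values of some genes near 0 crossed it: Atp5b ranged from -0.0055 to 0.021, Atp5g1 from -0.0025 to 0.072, Cox5a from -0.091 to 0.0031, Cox7a2 from -0.077 to 0.0081 and Ndufab1 from -0.048 to 0.017. Over all genes, 2 passed. This count was 0 by the quasi-likelihood test (602 at an unadjusted p under 0.05), by limma-voom and by both RPKM fits. It was 70 with 1 common dispersion, 4 with upper-quartile scaling and 6 with no filter. With 1 library left out it ranged from 2 to 8, and 8 was reached without Sham 3 or without MI 1, with 6 without MI 5 and 4 without MI 4. With the replicate number as a block it was 12, and again none of the 75 passed. Replicate numbers did not pair the libraries: the correlations of same-numbered deviations were -0.132, -0.137, 0.0363 and 0.0916, and 1 of 4 sham libraries correlated best with its own number. The cause of these changes was not tested. Genes with few reads, Cox4i2 among them, are limited by depth.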
